A study of Mus musculus with 2 samples.

Results

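The Rab proteins are the largest family of small guanosine triphosphatases, and 59 genes whose symbol is Rab followed by a number, with or without a letter, were taken as the family from 55536 annotated genes. The symbol alone decides membership, though the family was picked with earlier results of these data known. The genes were measured by total RNA-seq in the left cerebral cortex of 2 female adult mice aged 8 to 10 months, F1 hybrids of C57BL/6 and CAST sold under the strain name B6CASTF1/J. Each library started from 300 ng of RNA with ERCC spike-ins, a set of synthetic RNAs added as a reference amount. Replicate 1 was animal 1 and replicate 2 was animal 5, although both labels carry the same donor entry, so that the animals are told apart by their numbers alone. There was 1 group and no treatment, so the values below describe levels and the spread between 2 animals, with no test between conditions and no p-value.

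A Rab protein is active while it holds GTP and idle while it holds GDP, and its active form recruits effectors that move, tether or dock a membrane. Each Rab sits on its own set of membranes, from the endoplasmic reticulum and Golgi through endosomes to lysosomes and secretory vesicles, held there by lipid groups attached to cysteines at the end of the protein. In neurons the family is best known for the release of synaptic vesicles, where Rab3a acts, and for traffic along axons and dendrites.

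The end of the coding sequence carries those cysteines, and it is shown first because transcripts of a highly expressed member, Rab11a, differed there. The last 12 codons before the stop codon are printed 5′ to 3′ on the coding strand, with cysteine codons in capitals, from GENCODE M21 transcripts on mm10.
Rab3a-201: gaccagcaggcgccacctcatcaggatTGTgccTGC
Rab3c-201: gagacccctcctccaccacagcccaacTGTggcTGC
Rab3d-203: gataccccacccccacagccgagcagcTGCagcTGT
Rab6a-201: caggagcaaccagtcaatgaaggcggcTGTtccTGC
Rab6b-201: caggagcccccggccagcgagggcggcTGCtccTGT
Rab11b-203: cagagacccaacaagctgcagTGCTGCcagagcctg
Rab11a-208: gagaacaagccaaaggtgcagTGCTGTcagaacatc
Rab11a-206: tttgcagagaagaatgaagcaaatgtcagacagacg
The printed Rab3 and Rab6 transcripts ended in the same arrangement, 2 cysteine codons with 1 codon between them, the last one directly before the stop codon. In Rab11b-203 and Rab11a-208 the cysteine codons stood side by side and 3 further codons followed. Rab11a-206 held none. One transcript with a complete frame was read for each of the 59 genes, the leading one by the first transcript table except in Rab8a, Rab11b and Rab44, whose leading transcripts are not protein coding and were replaced by Rab8a-201, Rab11b-203 and Rab44-201. Of these frames 44 had 2 cysteine codons among the last 4 codons, 14 had 1 and Rab11a-206 alone had 0. In all 14 that codon was the first of the 4, so a cysteine codon just before it, as in Rab11b-203, was not counted. The commonest arrangement, found in 20 genes, was that of Rab3 and Rab6, and in 15 genes the last 2 codons were both cysteine codons. These frames ran from 153 codons in Rab11a-206 to 725 codons in Rab44-201, a transcript with 0 counts in both libraries, with a median of 215, and 53 of them lay between 180 and 260 codons.

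All 59 members are annotated as protein coding and lie on 18 chromosomes, 4 of them on X. The libraries held 28252339 estimated counts in genes in replicate 1 and 30166261 in replicate 2, of which the family took 127494 and 133813, or 0.450% and 0.443%. Detection was set at 1 TPM, a relative transcript level corrected for transcript length and depth, in both libraries. By that measure 50 members, 84.7%, were detected, against 58.9% of all 22028 protein-coding genes. Rab32 and Rab39 passed in 1 library only, and 7 members were below 1 TPM in both. At 100 TPM or more in both libraries there were 8 members, 13.6%, against 4.17% of protein-coding genes. The median member stood at 19.1 TPM in replicate 1 and 20.1 TPM in replicate 2. Among detected genes the difference from other protein-coding genes was smaller, with medians of 26.4 and 25.2 TPM for the Rabs and 16.2 and 16.8 TPM for all. Both libraries are bulk tissue, in which fewer cells of a type and less RNA per cell cannot be told apart.

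The tissue label was checked against marker lists. All listed markers of cortical excitatory neurons, inhibitory neurons, astrocytes, oligodendrocytes, microglia and endothelial cells were detected in both animals, and Slc17a7, the vesicular glutamate transporter of cortical excitatory neurons, stood at 452 and 488 TPM. All 5 markers of striatum were detected too, with a summed level of 610 and 681 TPM, so transcripts used as markers of striatum were present. The animals stood apart in a pair of lists. The summed level of 4 choroid plexus markers was 179 TPM in replicate 1 and 59.7 TPM in replicate 2. Of these sums Ttr alone made up 172 and 55.7 TPM. Kl, Clic6 and Folr1 were lower in replicate 2 too, but stood at 2.91 TPM or less in each animal. The summed level of 6 activity-induced genes was 317 and 73.8 TPM, with all 6 lower in replicate 2. What these differences contribute to the Rab values was not tested.

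**Figure D1:**
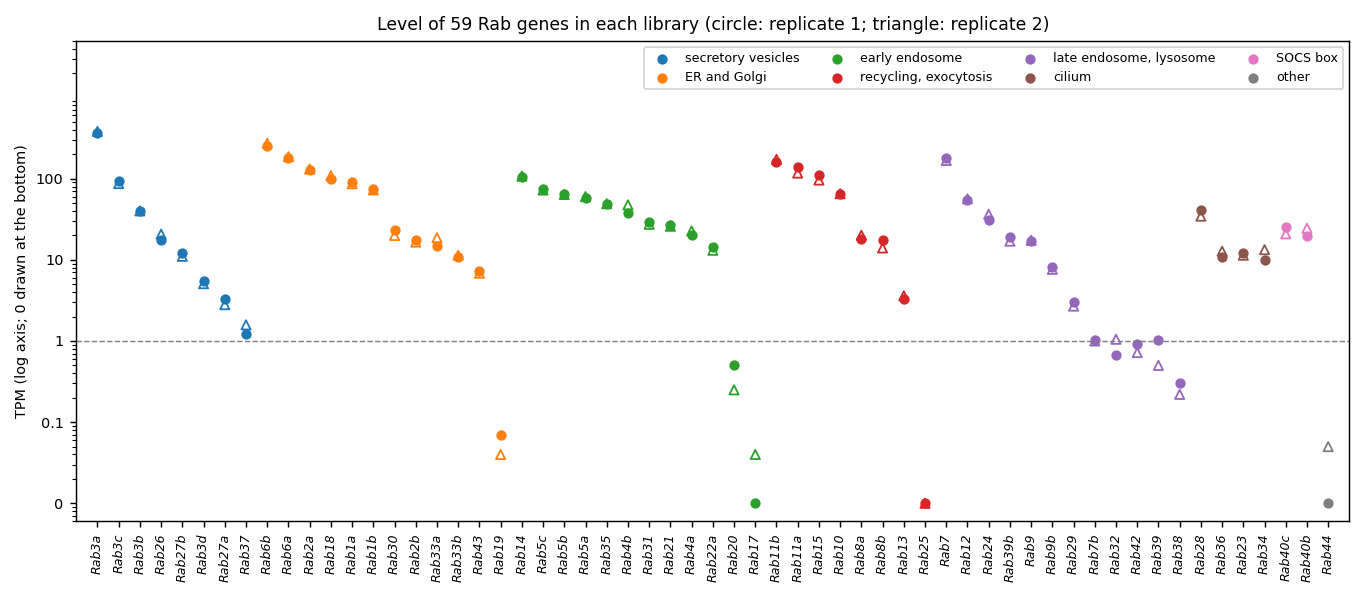
Level of each of the 59 Rab genes in TPM on a log axis, grouped by role, with a circle for replicate 1 and a triangle for replicate 2 and values of 0 drawn at the bottom. Rab3a stands highest at 359.9 and 381 TPM, and 50 genes lie at or above the dashed line of 1 TPM in both animals.

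The 12 most abundant members together held 66.3% of the family's TPM in replicate 1 and 66.4% in replicate 2. The plot of levels by role shows how steeply they drop within each role. Rab3a led with 359.9 and 381 TPM (mean 371 ± 15.1, SD, n = 2), which placed it above 99.4% of protein-coding genes and gave it 12.6% and 13.2% of the family's TPM. Rab6b, a Golgi Rab enriched in neurons, followed with 253 and 273 TPM (263 ± 13.8, SD, n = 2). Its paralog Rab6a, found in most cell types, stood at 179 and 186 TPM (183 ± 4.93, SD, n = 2). The ranges of these 3 genes over the 2 animals did not overlap each other. On mm10 they lie on the plus strand, Rab3a (ENSMUSG00000031840.12) at chr8:70754679-70758677, Rab6b (ENSMUSG00000032549.7) at chr9:103111787-103185276 and Rab6a (ENSMUSG00000030704.14) at chr7:100607410-100641268.

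Below them neighbours in the order often overlapped. Rab7, which brings late endosomes to lysosomes, measured 181 and 168 TPM (174 ± 9.19, SD, n = 2), and its range overlapped those of Rab6a above and Rab11b below. Rab11b, a Rab of recycling endosomes, measured 158 and 173 TPM (165.5 ± 10.2, SD, n = 2). Rab2a, which acts between the endoplasmic reticulum and the Golgi, measured 127 and 131 TPM (129 ± 3.25, SD, n = 2) and did not overlap Rab11b. Rab11a spread more widely, from 138 TPM in replicate 1 to 117 TPM in replicate 2 (128 ± 15.1, SD, n = 2), and enclosed the values of Rab2a.

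Around 100 TPM, Rab14, Rab15 and Rab18 were not separated. Rab14, which works between endosomes and the Golgi, stood at 105 and 107 TPM. Rab15, an endosomal Rab known from neurons, stood at 112 and 96.1 TPM. Rab18, which acts at the endoplasmic reticulum and lipid droplets, stood at 98.5 and 109 TPM. Rab3c, a relative of Rab3a on synaptic vesicles, and Rab1a, which carries cargo from the endoplasmic reticulum to the Golgi, closed the leading 12. Rab3c measured 92.4 and 86.95 TPM and Rab1a 90.3 and 86.5 TPM, again overlapping.

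By role, the Rabs of the endoplasmic reticulum and Golgi carried the largest share of the family's TPM, 31.4% in replicate 1 and 32.3% in replicate 2, with 11 of 12 members detected. Rab6b, Rab6a and Rab2a led this group. Rab1b stood at 74.7 and 72.6 TPM, and Rab30, Rab2b, Rab33a, Rab33b and Rab43 lay between 7.09 and 21.5 TPM on average. The exception was Rab19, with 2 and 1 counts.

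Rabs of secretory vesicles held 18.6% and 19.0% of the family's TPM, and all 8 were detected. Rab3a supplied most of it. Rab3b stood at 40.3 and 40.0 TPM and Rab3d, known from exocrine granules, at 5.42 and 5.08 TPM. Between them lay Rab26, which links vesicles to autophagy, with 17.4 and 20.7 TPM, and Rab27b, which docks secretory granules, with 11.97 and 11.05 TPM. The lowest were Rab27a, best known from melanosomes and cytotoxic granules, at 3.31 and 2.80 TPM and Rab37, known from mast cell granules, at 1.21 and 1.58 TPM.

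Recycling and exocytic Rabs held 17.9% and 16.9%, with 7 of 8 detected. Rab10, which takes part in the delivery of vesicles to the cell surface, measured 63.95 and 65.2 TPM, while Rab8a and Rab8b, which act in exocytosis and at the cilium, lay at 18.03 and 20.07 TPM and at 17.8 and 14 TPM. Rab13, a Rab of epithelial junctions, was low at 3.26 and 3.60 TPM. Rab25, a relative of Rab11 found in epithelia, had no count in either library, which allows a level of up to 0.241 TPM in replicate 1 and 0.232 TPM in replicate 2 when 3 counts over the effective length of the gene in the files are taken as the limit of a count of 0. The deposited interval of Rab25 is wider and reached 1.02 and 0.987 TPM, and the second transcript table listed 0 and 0.0651 TPM. The limit from counts covers counting error only, and the reads carried no molecular identifiers as far as the sources used here state.

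Early endosomal Rabs held 16.8% and 17.0%, with 10 of 12 detected. The 3 Rab5 genes, which drive fusion of early endosomes, stood close together at 73.7 and 72.3 TPM for Rab5c, 65.1 and 63.8 TPM for Rab5b and 58.5 and 60.1 TPM for Rab5a. Rab4b and Rab4a, which return cargo from early endosomes to the surface, stood at 38.0 and 47.5 TPM and at 20.4 and 22.7 TPM, both higher in replicate 2. Rab35, which acts in recycling at the cell surface, measured 48.1 and 49.1 TPM, and Rab21, Rab31 and Rab22a lay between 13.7 and 28.3 TPM on average. Rab20 measured 0.51 and 0.25 TPM and Rab17, a Rab of epithelial cells, 0 and 1 counts.

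Late endosomal and lysosomal Rabs held 11.1% and 10.7% of the family's TPM, with 8 of 12 detected. Rab7 alone stood at more than 100 TPM. Rab12, which acts in the turnover of receptors, measured 54.8 and 56.4 TPM and Rab24, linked to autophagy, 30.6 and 36.4 TPM. Rab39b, a gene on X whose loss causes intellectual disability and early parkinsonism in people, stood at 19.1 and 17.0 TPM, and its paralog Rab39 at 1.04 and 0.50 TPM. Rab32 and Rab38, which serve melanosomes and related organelles, stood at 0.67 and 1.05 TPM and at 0.30 and 0.22 TPM. Rab9, which returns receptors from late endosomes to the Golgi, measured 17.02 and 17.4 TPM and its paralog Rab9b 8.27 and 7.64 TPM. Rab29 stood at 2.98 and 2.69 TPM, Rab7b at 1.04 and 1.00 TPM, at the detection limit, and Rab42 at 0.92 and 0.72 TPM.

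The 4 Rabs placed with the cilium were all detected at moderate levels. Rab28 led with 40.6 and 34.5 TPM, and Rab36, Rab23 and Rab34 lay between 11.6 and 11.8 TPM on average. Rab23, an inhibitor of hedgehog signalling, measured 12.2 and 11.4 TPM. Rab40c and Rab40b, which carry a SOCS box and serve in ubiquitin ligases, measured 25.7 and 20.9 TPM and 19.9 and 24.5 TPM, so that their order was not the same in both animals. Rab44, a long member known from immune cells, had 0 and 1 counts.

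**Figure D2:**
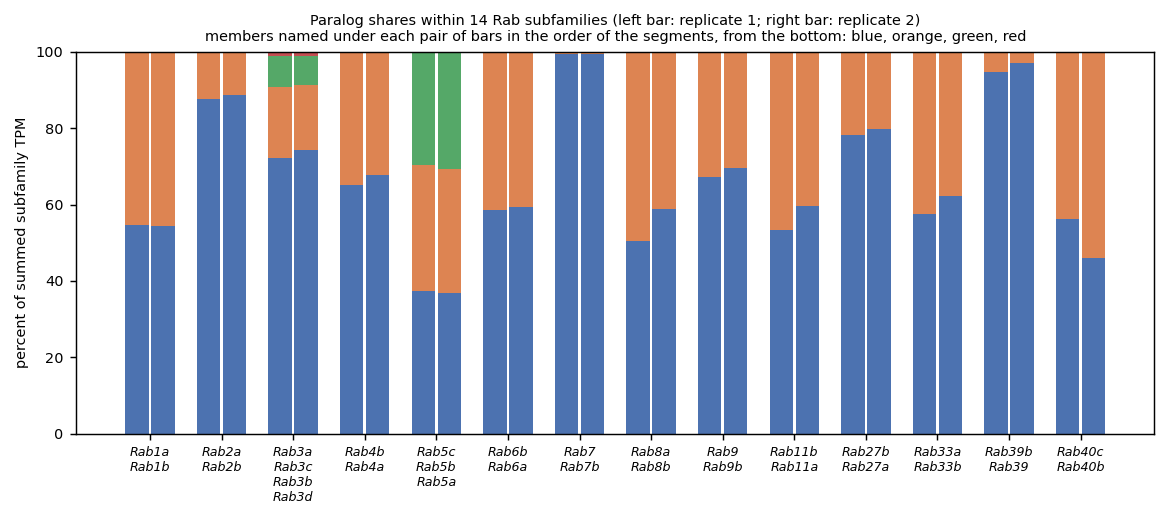
Share of each paralog in the summed TPM of its subfamily, in percent, for 14 subfamilies, with the left bar for replicate 1 and the right bar for replicate 2. Rab7, Rab39b and Rab2a hold more than 80% of their subfamilies in both animals, whereas Rab5c holds 37.1% of the Rab5 total and the order of the Rab40 genes turns between the animals.

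Paralogs, genes with the same number and another letter, made up 14 subfamilies with 31 members. The leading paralog held at least 80% of its subfamily's TPM in both animals in 3 of them, Rab7 with 99.4 ± 0.0145% (SD, n = 2), Rab39b with 96.0 ± 1.62% and Rab2a with 88.3 ± 0.774%. At the other end Rab5c held 37.1 ± 0.353% of the Rab5 total and Rab40c 51.2 ± 7.25% of the Rab40 total. The median share of a leading paralog was 63.1%. The leader was the same in both animals in 13 of 14 subfamilies, the exception being Rab40. Rab6b held 58.6% and 59.4% of the Rab6 total, a spread far smaller than its distance from an even share.

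Rab3 was the largest subfamily. Rab3a held 72.3% and 74.3% of its TPM, Rab3c 18.5% and 16.9%, Rab3b 8.09% and 7.80%, and Rab3d 1.09% and 0.990%. The order was the same in both animals. It depended on length correction, because Rab3c had more reads, 11470 and 11647 counts against 8341 and 9144 for Rab3a, on a leading transcript of 8444 bases against 1363 for Rab3a-201. In estimated counts Rab3a held 40.7 ± 1.31% of the subfamily (SD, n = 2). The leader by counts was another gene in 5 of the 14 subfamilies, Rab3, Rab5, Rab8, Rab9 and Rab33. There the leaders by TPM held 28.4 ± 0.139% (Rab5c), 34.3 ± 4.13% (Rab8a), 42.6 ± 1.31% (Rab9) and 36.5 ± 4.36% (Rab33a) of the counts (SD, n = 2). Aligned coding sequences of Rab3a and Rab3c had identical bases over 73.6% of the length of the longer one. The longest stretch that their leading transcripts shared was 20 bases. Among all pairs of paralogs, with 1 transcript read per gene, the longest shared stretch was 38 bases, between Rab1a and Rab1b. The highest coding identity by that measure was 78.4%, between Rab6a and Rab6b. Rab11a entered with Rab11a-206 of 153 codons, which gave 53.4% and 14 bases against Rab11b-203 of 193 codons. Rab11a-208 was not compared, so these maxima hold for the transcripts read and not for every form of the genes. Estimated counts were whole in both libraries for 53 members. They were not for Rab7, Rab11b, Rab18, Rab5b, Rab8b and Rab43, whose reads were thus divided between genes or copies, and whose levels are less certain.

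**Figure D3:**
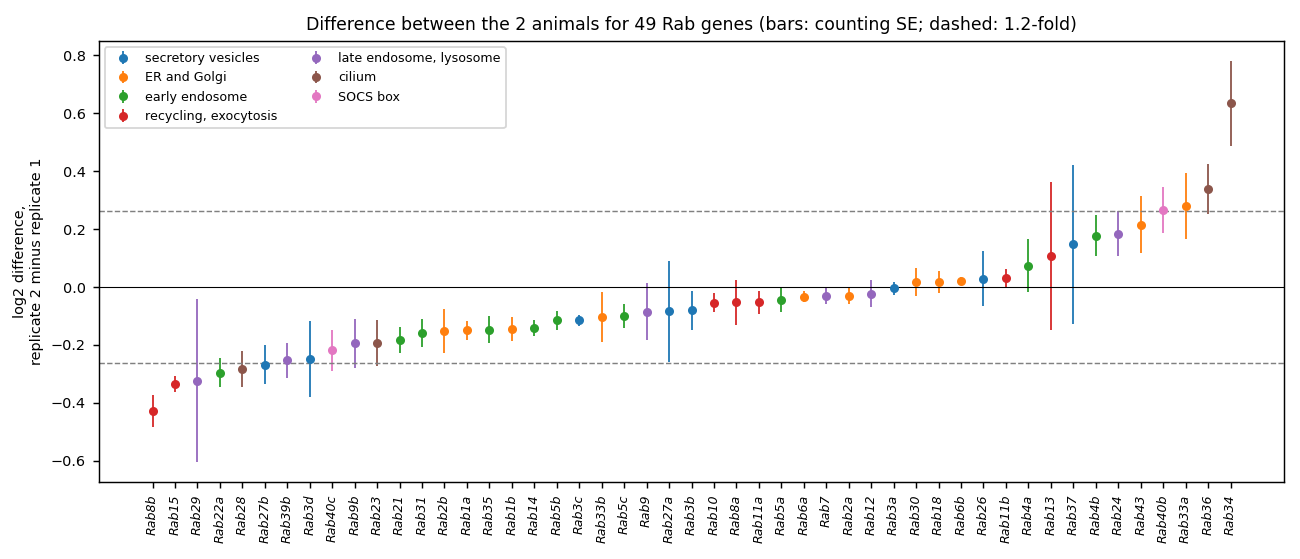
Difference between the animals for 49 Rab genes as log2 CPM of replicate 2 minus replicate 1, after scaling by the trimmed mean of M values, with bars of 1 counting SE and dashed lines at 1.2-fold. Values run from -0.43 for Rab8b to 0.63 for Rab34, and with ERCC scaling the median gene moves up from -0.08 to 0.20, so that genes near 0 change side.

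The spread between the animals was described for the 49 members with a mean of at least 50 counts, as the log2 difference of replicate 2 minus replicate 1 after scaling by the trimmed mean of M values (TMM). With 1 library per animal this has no replicate check. Past 1.2-fold either way there were 10 members, 20.4%, against 27.4% of 14122 genes. Of the 10 members, 4 were higher in replicate 2, 8.16% against a background of 14.3%, and 6 were lower, 12.2% against 13.1%. No member was past 2-fold, against 1.25% of genes. The median absolute difference was 0.15 for the members and 0.15 for all genes. The median counting standard error was 0.06 for the members and 0.08 for all genes, so counting error was larger in the background. The median difference was -0.08 for the members and -0.02 for all genes. Of the members 34 were below and 15 above 0, or 69.4% below, against 54.4% of all genes. Scaled by the ERCC spike-ins the median of the members became 0.20 and that of all genes 0.25, and 16 members were past 1.2-fold higher and 0 lower, 32.7% in all against 51.2% of genes, of which 48.1% were higher and 3.03% lower. On TPM as deposited 5 members were higher and 2 lower, against 23% and 9.79% of genes, 32.7% in all. With total counts 4 members were higher and 3 lower, against 17.1% and 9.75% of genes, 26.9% in all. Of the 10 calls, 4 held with ERCC scaling, 4 on deposited TPM and 7 with total counts. The 6 genes named as lower below are therefore lower relative to the other genes of the library, and on the ERCC scale none of them stayed past 1.2-fold.

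Rab34, which is needed to build cilia, had the largest difference. It had 152 counts in replicate 1 and 260 in replicate 2, a log2 difference of 0.63 (counting SE 0.15). Its relative Rab36 had 480 and 668 counts, a difference of 0.34 (SE 0.09). Both were higher in animal 5 under every scaling tried. On TPM as deposited Rab36, Rab15, Rab28, Rab22a, Rab29 and Rab27b fell short of 1.2-fold, and Rab28 and Rab27b also did so with total counts and in the second table, Rab22a with total counts and Rab40b in the second table. Among the 4 cilium Rabs, 2 were thus higher, Rab28 was lower at -0.28 (SE 0.06) and Rab23 stayed within the limit at -0.19.

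Rab33a, a Golgi Rab on X, had 280 and 374 counts and a difference of 0.28 (SE 0.11), and Rab40b had 594 and 786 counts and a difference of 0.27 (SE 0.08). Rab8b was the lowest, with 1496 counts in replicate 1 and 1223 in replicate 2 and a difference of -0.43 (SE 0.06), but it is among the genes whose counts were not whole. Rab15 had 6014 and 5239 counts and a difference of -0.34 (SE 0.03), and one of -0.22 on deposited TPM. Rab29, a Rab tied to the kinase Lrrk2, differed by -0.32 on 56 and 49 counts, with a counting SE of 0.28 that is nearly as large. Rab22a differed by -0.30 (SE 0.05) and Rab27b by -0.27 (SE 0.07), and Rab27b changed sign to 0.0082 on the ERCC scale. Around the limit of 0.263 in log2, Rab40b at 0.27 and Rab27b at -0.27 lay just inside the count, and Rab39b at -0.25 and Rab3d at -0.25 just outside it.

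The deposited tables also give a credibility interval for each TPM. These intervals were apart between the animals for 8 of the 49 members, 16.3%, against 19.8% of genes. Rab3a was among them, since its interval ran from 339 to 354 TPM in replicate 1 and from 360.4 to 376 TPM in replicate 2. Scaled counts of Rab3a differed by -0.00 (SE 0.02), so the call came from the TPM scale. For Rab3a the deposited TPM itself lay above its interval in both libraries. Of the members past 1.2-fold, Rab8b, Rab15, Rab28 and Rab33a had intervals that were apart. Those of Rab34, Rab36, Rab40b, Rab22a, Rab27b and Rab29 overlapped. For Rab34, with the largest difference, they ran from 7.76 to 12.5 TPM in replicate 1 and from 11.3 to 16.9 TPM in replicate 2. Rab39, named after its values were seen, had 54 and 27 counts, under the minimum of 50 on average, a log2 difference of -1.11 (SE 0.34) and intervals that were apart.

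**Figure D4:**
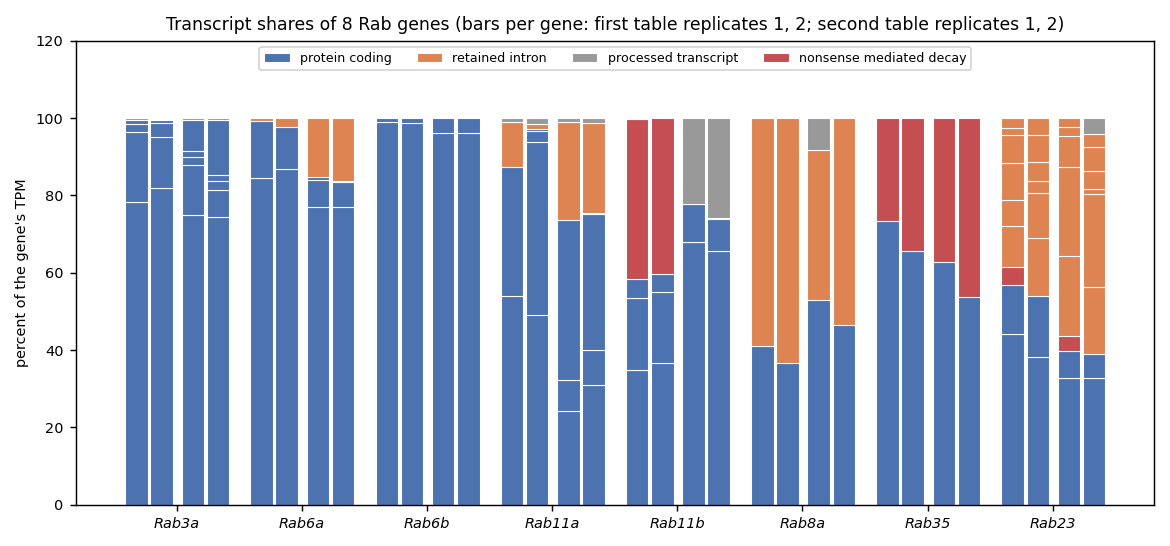
Share of each transcript in its gene's TPM, in percent, for 8 Rab genes, with 4 bars per gene for replicates 1 and 2 in the first and in the second transcript table, colored by the annotated transcript class. Rab6b is nearly all protein coding in all 4 bars, whereas Rab8a has 58.9% and 63.2% in a retained intron transcript in the first table.

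Annotation gave the 59 genes 256 transcripts, 101 of them in classes that are not protein coding. Transcript shares were read in 39 genes with at least 5 TPM and more than 1 transcript, in each of the 2 deposited transcript tables, which were made from the same reads by different routes. In 31 genes both tables named the same leading transcript and in 8 they did not. The leading transcript held over 80% of the gene in both animals in 18 genes by the first table. Rab6b-201 is an example, with 99.1% and 98.8% in the first table and 96.2% and 96.2% in the second.

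Rab6a makes 2 protein forms from a pair of neighbouring exons of 106 bases, of which a transcript carries one or the other. They are printed 5′ to 3′ on the plus strand of mm10, at chr7:100629838-100629943 for the downstream exon and chr7:100629666-100629771 for the upstream exon. Capitals mark the 30 bases that differ.
Rab6a downstream exon: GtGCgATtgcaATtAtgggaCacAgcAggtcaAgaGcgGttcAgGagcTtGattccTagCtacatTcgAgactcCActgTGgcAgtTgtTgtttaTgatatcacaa
Rab6a upstream exon: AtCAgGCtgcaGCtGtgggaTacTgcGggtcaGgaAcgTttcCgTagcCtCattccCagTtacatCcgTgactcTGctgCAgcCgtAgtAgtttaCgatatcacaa
The differing bases are spread over the whole length, so that reads can be told apart at most positions. Rab6a-201, which carries the downstream exon, held 84.5% and 86.7% of the gene in the first table. Transcripts with the upstream exon held 14.7% and 11.1%. Taken as a share of both forms, the downstream exon had 85.2% in replicate 1 and 88.7% in replicate 2. The second table gave 90.9% and 92.1% for the same share, and it also placed 15.3% and 16.3% of the gene in a retained intron transcript of 567 bases, to which the first table gave 0.850% and 2.21%. The predominance of the downstream exon was common to both animals and both tables.

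Rab11a was the abundant member on which the tables differed most. The first table gave 53.95% and 49.02% of it to Rab11a-206, the 462-base transcript whose frame ends without cysteine codons, and 33.4% and 44.7% to Rab11a-208, which has them. By counts the order was the other way, 491 and 392 counts for Rab11a-206 and 1875 and 2208 for Rab11a-208, because the short transcript weighs more per count. The second table gave Rab11a-206 nothing in either animal and put 41.2% and 35.2% on Rab11a-201, of 595 bases, and 24.2% and 30.9% on Rab11a-208. How much Rab11a mRNA lacks the cysteine codons is therefore not settled by these tables.

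For Rab11b the first table was led by Rab11b-204, annotated for nonsense-mediated decay, a pathway that degrades transcripts with an early stop codon, with 41.3% and 40.3%. The second table gave it 0% and 0.206% and put 67.9% and 65.5% on the protein-coding Rab11b-203. For Rab18 it was the other way around. Rab18-204, a nonsense-mediated decay transcript of 354 bases, held 1.46% and 4.76% in the first table and 34.2% and 40.2% in the second. Both genes are among those whose counts were not whole.

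Noncoding transcripts held over 20% of the TPM in both animals by both tables in 8 genes, Rab8a, Rab11b, Rab23, Rab26, Rab33b, Rab34, Rab35 and Rab36, with the same leading transcript in both tables in 6 of them. Rab8a is led in the first table by Rab8a-202, a retained intron transcript of 542 bases, with 58.9% and 63.2%, and the second table gave the same transcript 38.7% and 53.5%. It rested on 85.1 and 106 counts, against 599 and 619 for the protein-coding Rab8a-201 of 4550 bases. The lead of Rab8a over Rab8b by TPM, with 50.3% and 58.9% of the Rab8 total, includes Rab8a-202. Rab8b has 1 annotated transcript, which is protein coding. Without Rab8a-202, Rab8a would stand below Rab8b in both animals by the first table. Rab35-202, annotated for nonsense-mediated decay, held 26.7% and 34.4% in the first table and 37.3% and 46.2% in the second. For Rab23 all noncoding transcripts together held 43.2% and 45.9% in the first table and 60.3% and 60.9% in the second. The libraries were made from total RNA, which holds unspliced transcripts too, and the part of those in these shares was not tested.

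**Figure D5:**
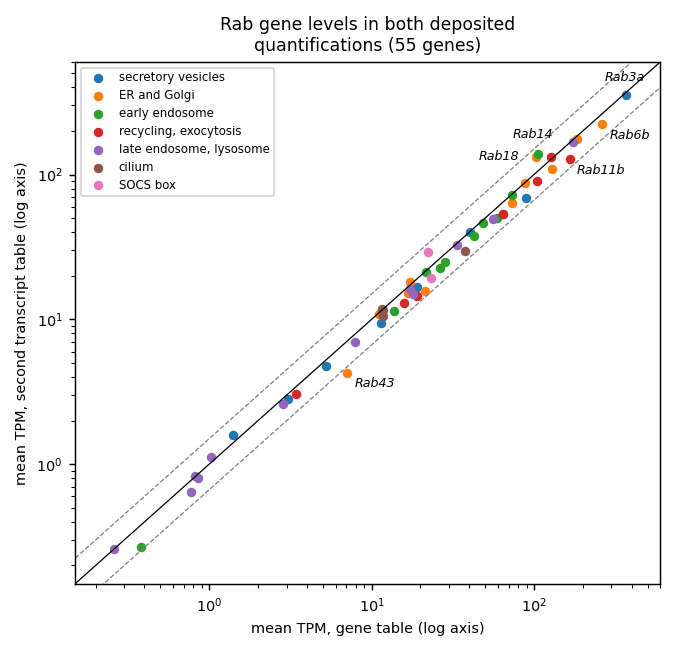
Mean TPM of 55 Rab genes in the gene table and in the second transcript table, both on log axes, with a line of equality and dashed lines at 1.5-fold. Among detected genes Rab43 lies furthest below the line at 0.601 and Rab14 furthest above at 1.31 times the gene table's value.

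Gene levels were closer between the quantifications than transcript shares, as the plot of both tables shows. The median ratio of the second table to the gene table was 0.894 for the 50 detected members, and 49 of them lay within 1.5-fold. The lowest ratio was 0.601 for Rab43 and the highest 1.31 for Rab14. The leading 12 had 11 genes in common. Within subfamilies the second table gave another order by the mean of both animals in Rab11, where Rab11a led with 51.1 ± 5.30% (SD, n = 2), and in Rab40, where Rab40b led with 60.0 ± 2.00%. The other 12 of 14 subfamilies had the same leader by that mean. In Rab8, however, Rab8a held 48.4% in replicate 1 and 57.6% in replicate 2 of the second table.

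Proteins that carry, switch on and switch off Rabs were read from lists of 141 annotated genes. Of these 132 were detected, against 58.9% of all protein-coding genes. Of 133 with at least 50 counts on average, 11 were past 1.2-fold higher in replicate 2 and 20 lower, 23.3% together against the background of 27.4%, and with ERCC scaling 62 were past it, 46.6% against 51.2% of genes. The 9 genes of Rab delivery and prenylation, which attach the lipid and ferry the idle protein, all stayed within 1.2-fold. Gdi2, a GDP dissociation inhibitor, measured 154 and 152 TPM. Rabac1, which binds prenylated Rabs, measured 153 and 154 TPM, while Rabggtb, a subunit of the enzyme that attaches the lipid, measured 27.8 and 28.4 TPM.

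Among exchange factors, which load GTP, 34 of 37 were detected, and 5 were higher and 7 lower of 34. The background for this list and those that follow was 14.3% of genes higher and 13.1% lower, with 58.9% of protein-coding genes detected. Dennd5a led with 122 and 124 TPM and Madd, the exchange factor of Rab3, stood at 100.1 and 98.0 TPM. Dennd6b, at 15.4 and 22.9 TPM, had a log2 difference of 0.65 (SE 0.06), and Hps1, at 3.62 and 5.61 TPM, one of 0.73 (SE 0.14). Among the GTPase-activating proteins, which end the signal, 36 of 37 were detected, and 2 were higher and 5 lower of 36. Rabgap1l led with 91.96 and 115 TPM, and Sgsm1 was lower in replicate 2, at 69.6 and 40.1 TPM with a difference of -0.73 (SE 0.03).

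Of 55 effectors, the proteins that bind active Rabs, 50 were detected, and 4 were higher and 6 lower of 51. Several of the most abundant are partners of Rab3a or Rab27 at the synapse. Rph3a measured 152 and 148 TPM and Rims1 145 and 148 TPM. Syn1, a synaptic vesicle protein that binds Rab3, measured 181 and 199 TPM, and the motor Myo5a 139.8 and 154 TPM. Rilpl1, a partner of phosphorylated Rab8 and Rab10, was lower in replicate 2 at 35.6 and 24.4 TPM, a log2 difference of -0.64 (SE 0.06). Lrrk2, the kinase that phosphorylates several Rabs, was lower as well, at 37.9 and 27.05 TPM (-0.70, SE 0.04), and Ppm1h, a phosphatase that reverses it, measured 46.2 and 39.7 TPM (-0.29, SE 0.03). Lrrk1 stood at 2.21 and 2.83 TPM. On the ERCC scale the differences of Lrrk2 and of all other genes named here move up by the same amount as those of the Rabs.

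The Rab promoters were compared by their content of CG, a cytosine followed by a guanine, which reads the same on both strands. RefSeq promoter windows on GRCm38.p6, from 250 bases before to 50 after the start, matched 48 members by symbol, and 8 of these have several, of which the window with the most CG was used. Of the 41 detected members with a window, 27 held at least 20 CG, with a median of 25 and a range of 7 to 45. Of the 7 other members, 1 did, with a median of 9 and a range of 5 to 27. Over all 27025 genes with a window the median was 8, 94.6% held at least 1 and 28.8% held at least 20, against 58.3% of the members. That background was not limited to genes detected here, and the share among other detected genes was not read. The windows of a member at each end of the level range, Rab6b with 42 CG and Rab25 with 9, are printed 5′ to 3′ on the gene's strand with CG in capitals. They lie at chr9:103111824-103112123 on the plus strand and at chr3:88548230-88548529 on the minus strand of GRCm38 (mm10). The Rab6b window lies inside the gene as annotated in GENCODE M21, which starts at chr9:103111787. Its 250 bases before the start are therefore counted from the RefSeq start alone.
Rab6b promoter: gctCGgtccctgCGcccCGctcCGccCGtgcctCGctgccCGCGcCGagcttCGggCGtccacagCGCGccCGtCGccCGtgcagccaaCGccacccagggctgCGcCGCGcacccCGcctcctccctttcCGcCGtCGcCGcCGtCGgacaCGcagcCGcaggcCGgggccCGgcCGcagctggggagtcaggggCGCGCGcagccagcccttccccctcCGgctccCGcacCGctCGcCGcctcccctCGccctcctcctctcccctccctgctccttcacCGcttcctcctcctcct
Rab25 promoter: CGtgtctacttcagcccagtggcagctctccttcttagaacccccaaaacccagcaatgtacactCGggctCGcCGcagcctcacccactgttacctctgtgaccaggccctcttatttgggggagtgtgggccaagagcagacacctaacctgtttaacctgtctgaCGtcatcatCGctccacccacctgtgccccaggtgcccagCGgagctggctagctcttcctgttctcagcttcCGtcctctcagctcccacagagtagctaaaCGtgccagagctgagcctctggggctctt
Level and CG content did not go together throughout. Rab11b and Rab3c, among the leading 12, held 12 and 11, and Rab39, at 0.770 TPM on average, held 27. No methylation or binding data were used.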

How the data were processed

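Total RNA-seq of 2 libraries, 1 per animal, was used. Per the file headers and the text deposited with the files, reads were aligned to mm10 with GENCODE M21 and quantified, giving estimated counts per gene and per transcript and TPM, a percent of the gene's TPM per transcript and bounds of a credibility interval of TPM (treated here as a score, level not stated), all as the authors deposited them. A second deposited transcript table of estimated counts and TPM came from the reads directly. Which tools and versions were run, whether counting used strand and how alleles were handled is not stated in the labels or headers. Reads of a gene and its antisense partner may therefore not be told apart, and mm10 stood in for both parental genomes. Totals of estimated counts with spike-ins were 28327434 and 30234441, of which 0.265% and 0.225% were ERCC.

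Members, role lists, regulator lists and markers were chosen with earlier results of these data known. Gene levels are the deposited TPM as mean ± SD (n = 2). Log2 differences are log2 CPM with edgeR 4.0.16 (TMM, prior count 1, R 4.3.3) on counts rounded to whole numbers, their SE covers counting error alone, and genes needed a mean of 50 counts. The step was tested on simulated data with 200 changed genes. DESeq2 1.42.0 size factors, total counts and ERCC counts were alternatives. Other steps used Python 3.11.15, pandas 2.3.3, Biopython 1.88 and matplotlib 3.10.9. Named genes were all members, and of each regulator list at most 4 by level and 2 by difference. Counts were called whole within 0.01. In place of protein features, which had been planned, coding sequences were used, since no protein table was used here. Some items are not reported here.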

Additional observations from a re-analysis of the deposited data

Results flagged for a closer look

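Of 6 genes named after Rabs that are no members, 4 gave signal outside the comparisons above, more than a count of 0 allows. The pseudogenes Rab5a-ps, with 0 and 1 counts, and Rab9b-ps1, with 0 in both libraries, did not. Rab10os, annotated antisense to Rab10, had 609 and 824 counts and 18 TPM on average, and the second transcript table gave it 16.9 and 19.5 TPM. The pseudogene Rab11b-ps2 had 64.3 and 118 counts and 8.87 TPM on average, with 24.3 and 26.6 TPM in the second table, and Rab11b itself had estimated counts that were not whole. Rab26os, antisense to Rab26, had 28 and 31 counts and 7.67 TPM on average, but 0.181 and 0.526 TPM in the second table. The pseudogene Rab7-ps1 had 4 and 3.84 counts and 0.405 TPM on average, and was listed at 0 in the second table. Reads from a gene and its antisense partner, or its processed copy, may not be told apart.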

How the results depend on the processing

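No paired analysis was possible because there is 1 group. The median Rab level of 19.05 TPM became 16.8 TPM in the second table and 19.1 to 20.1 TPM when 1 animal was left out. Detection gave 45 to 53 members under the other thresholds, the second table and single animals, and the median share of leading paralogs 60.95% to 64.98%. The median log2 difference of -0.08 became 0.20 with ERCC scaling and -0.0086 on deposited TPM, and stayed between -0.08 and -0.04 under the other alternatives. The 10 members past 1.2-fold became 16 with ERCC scaling and 7 to 9 with the other scalings, the second table and deposited TPM. Without a minimum count there were 18, with a minimum of 10 counts 13 and with one of 200 counts 9. The share of all genes was not read at these other minimums, so those counts have no background. At the minimum of 50 counts, 51.2% of all genes were past 1.2-fold with ERCC scaling and 32.7% on deposited TPM. The share was 26.4% to 27.1% with the other scalings and the second table. Of the 10 calls 4 held with ERCC scaling, 4 on deposited TPM and 7 to 9 in the scalings and table named last. Rab27b changed sign to 0.0082 with ERCC counts. The effective library of replicate 2 was 1.1 times that of replicate 1 by TMM and 0.908 times by ERCC counts. Leading transcripts that are not protein coding numbered 2 in the first table and 1 in the second. Regulators past 1.2-fold numbered 31, 62 with ERCC scaling and 26 to 29 otherwise. Of the values of single genes and subfamilies, 111 kept their call or stayed within 1 SD, 32 moved by more than 1 SD and 18 fell short of 1.2-fold under an alternative. The cause of these shifts was not tested. Leaving out 1 of 2 animals moves a mean by less than 1 SD whatever the values. Such entries among the 111 therefore say nothing about stability. With 1 library per animal, 2 animals and levels under 3 counts, neither small differences nor the lowest members can be resolved.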

Other observations

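Other families of small GTPases were detected at similar rates, 25 of 30 Arf and Arl genes and 28 of 32 Ras genes, beside 50 of 59 Rabs. Their median levels were 24.3 and 26.9 TPM for Arf and Arl and 22.7 and 21.2 TPM for Ras. Arf3, a Golgi GTPase, stood at 389 and 399.7 TPM, close to Rab3a. Rasl11b, a Ras relative, had 710 and 1531 counts, a log2 difference of 0.97 (counting SE 0.07) that was larger than that of any Rab with at least 50 counts on average.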
